A study of Mus musculus with 6 samples.

Results

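The complement genes were followed in ventricular tissue of mice 8 weeks of age, in 3 arrays labelled wild-type and 3 labelled caAkt, the name of a heart-specific transgene for a constitutively activated form of the kinase Akt. Of 9 listed members, 6 had a probe set annotated to that gene alone and were analysed, among 18193 genes in all: C1qa, C1qb, C1qc, C3ar1, Cfb and Cfp. C3 and Cfd were not analysed here, and C4b shares its probe set with C4a. A gene's value is its probe set with the highest mean over the 6 arrays, and 11 probe sets cover the 6 genes. The labels name no promoter for the transgene, no sex and no batch. They also leave unsaid whether the arrays of a group are separate animals, so a p-value reflects only how far these arrays spread, possibly for technical reasons.

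Complement is a cascade of blood and tissue proteins that tags and destroys targets and calls in immune cells. C1q, built from A, B and C chains, starts the classical pathway when it binds antibody or dying cells, and in many tissues macrophages make it. Mannose-binding lectins, collectins and ficolins start the lectin pathway. Both routes use C4 and C2 to activate C3. In the alternative pathway, factor B (Cfb) is the protease part of the enzyme that cleaves C3, factor D (Cfd) activates factor B, and properdin (Cfp) stabilises the enzyme. C3ar1 is the receptor for C3a, the small fragment of C3 that attracts and activates immune cells.

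The 3 C1q genes lie side by side on chromosome 4, with no other gene of the RefSeq table between them. For 4 of the 6 measured members the RefSeq promoter table (build GRCm38.p6) held a sequence (C1qb, C1qc, C3ar1 and Cfp). The 250 bases before the start are shown for C1qb and C1qc, which are neighbours that rose by like amounts. The window of C3ar1 is also shown, a gene that rose nearly as much at the probe set used as its value. The windows are C1qb chr4:136886201-136886450, C1qc chr4:136892915-136893164 and C3ar1 chr6:122856158-122856407. All are on the minus strand and written in the direction of the gene, with capitals for motif matches.
C1qb: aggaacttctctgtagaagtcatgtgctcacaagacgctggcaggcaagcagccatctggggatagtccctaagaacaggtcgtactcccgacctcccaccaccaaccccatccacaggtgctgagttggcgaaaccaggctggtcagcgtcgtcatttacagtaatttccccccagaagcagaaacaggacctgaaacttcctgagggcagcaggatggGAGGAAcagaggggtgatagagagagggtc
C1qc: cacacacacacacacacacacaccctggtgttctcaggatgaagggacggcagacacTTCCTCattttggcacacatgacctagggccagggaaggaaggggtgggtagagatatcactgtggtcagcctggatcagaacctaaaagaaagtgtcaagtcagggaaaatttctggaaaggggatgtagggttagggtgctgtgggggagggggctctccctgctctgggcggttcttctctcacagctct
C3ar1: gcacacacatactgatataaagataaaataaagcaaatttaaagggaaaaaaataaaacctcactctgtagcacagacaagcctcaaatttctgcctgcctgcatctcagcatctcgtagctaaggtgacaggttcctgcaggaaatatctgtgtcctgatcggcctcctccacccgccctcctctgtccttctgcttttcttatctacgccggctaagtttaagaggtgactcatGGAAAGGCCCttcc

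Motifs of 5 factor classes were searched on both strands. The core of PU.1, a factor of the macrophage lineage, was taken as GAGGAA and was found in C1qb, at -30 to -25 from the start, and on the opposite strand in C1qc, at -193 to -188. It occurs in 23.3% of the 32851 promoter windows of the same length. The NF-kB motif was found only in C3ar1 among the 4 promoters, at -14 to -5 and on the opposite strand, and occurs in 1.41% of windows. The STAT motif GAS (TTCNNNGAA, in 7.02% of windows), the interferon motif ISRE (2.98%) and the C/EBP core (TTNNGNAAT, 10.2%) had no match in the 4, and Cfp had none of the 5. A match shows only that these letters are in this window.

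The arrays had like distributions, with medians of 6.77 to 6.80, and the correlation across probe sets (features of an array, not replicates) was 0.995 to 0.997 within a genotype and 0.983 to 0.985 between genotypes. As a check of the labels, the most changed of the 4 Akt1 probe sets stood at 9.92 ± 0.22 in wild-type and 15.11 ± 0.04 in caAkt (log2, SD, n = 3). Another was lower in caAkt (log2 fold change -0.29, limma adjusted p = 0.0248), and the remaining values, -0.21 and 0.08, were not called. Cardiomyocyte markers were bright, with group means of 12.69 (Ryr2) to 15.45 (Actc1). In the limma fit over 18193 genes, 28.5% were called at a Benjamini-Hochberg adjusted p under 0.05, with 16.1% higher in caAkt and 12.4% lower. The balance of directions moved with the scaling: 2929 genes were higher and 2254 lower, against 2669 and 2708 after a second quantile normalization and 3065 and 2070 after median centring.

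All 6 measured complement genes were called higher in caAkt hearts and none lower, against the 16.1% of all genes called higher. For Cfp this holds only at the probe set used, since its other probe set was called lower. Their median log2 fold change was 1.28, against -0.04 over all genes. In each of the 6, all 3 caAkt values lay above all 3 wild-type values, as they did for 21.4% of all genes. The C1q genes and C3ar1 rose 2.40-fold to 2.90-fold, and the alternative pathway genes Cfb and Cfp rose 1.23-fold and 1.47-fold. In tissue RNA, more cells of a type and more RNA per cell cannot be told apart.

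**Figure D1:**
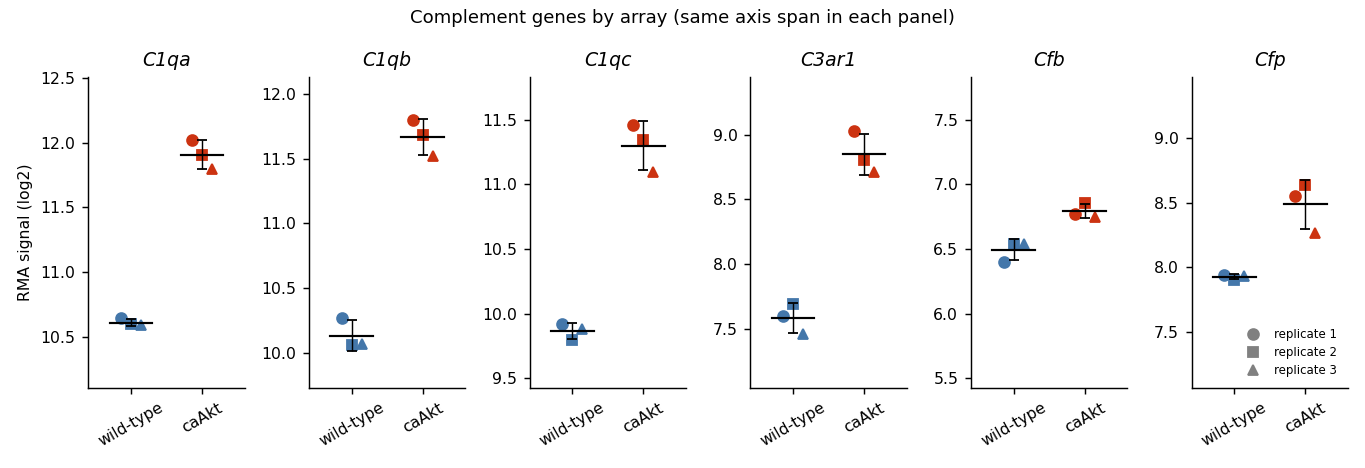
Level of each measured complement gene on each array (vertical axis, RMA signal on the log2 scale; the span is the same in every panel, the position is not). Points are arrays, with a shape per replicate number, horizontal lines are group means and bars are SDs over 3 arrays; the C1q genes and C3ar1 are separated by 1.27 to 1.54 log2 units, Cfb and Cfp by 0.30 and 0.56.

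C1qa, the A chain of C1q, had log2 levels of 10.64, 10.60 and 10.59 in wild-type and 12.02, 11.91 and 11.79 in caAkt. The wild-type arrays lay within 0.06 of each other and every caAkt array stood more than 1 log2 unit above them. The log2 fold change was 1.30 ± 0.08 (moderated SE, limma adjusted p = 5.43e-06). C1qb, the B chain, had 10.27, 10.06 and 10.07 in wild-type and 11.80, 11.68 and 11.52 in caAkt, again with groups well apart. At the probe sets used as gene values it showed the largest rise of the 6 genes, 1.54 ± 0.09 (adjusted p = 6.33e-06). C1qc, the C chain, had 9.92, 9.79 and 9.88 in wild-type and 11.46, 11.34 and 11.09 in caAkt, where caAkt replicate 3 was the lowest of its group. Its log2 fold change was 1.44 ± 0.10 (adjusted p = 1.20e-05). Among all genes ordered by log2 fold change, with 1 the largest rise, C1qb was at place 159, C1qc at 199 and C1qa at 251.

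Since the 3 chains form 1 protein, their values were also set against each other. Within an array, the log2 difference C1qa minus C1qb was 0.37, 0.54 and 0.52 in wild-type and 0.22, 0.22 and 0.27 in caAkt. The groups did not overlap, and the mean difference moved by -0.24 (two-sided exact permutation p = 0.1, the smallest that 3 against 3 arrays allow; 0.15 after adjustment over 3 pairs). C1qa minus C1qc moved by -0.14 (exact permutation p = 0.1, adjusted 0.15) and C1qb minus C1qc by 0.10 (exact permutation p = 0.3, adjusted 0.3). On caAkt arrays the order was the same for all 3 chains, with replicate 1 highest and replicate 3 lowest. C1qb has 2 dimmer probe sets that also rose, by 1.57 ± 0.23 (adjusted p = 0.00142) and 1.25 ± 0.16 (adjusted p = 0.000715) in the limma fit of all 34945 single-symbol probe sets, and these spread more between arrays, with wild-type values of 8.86 to 9.61 and 8.39 to 8.87.

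C3ar1, the C3a receptor, had log2 levels of 7.60, 7.69 and 7.46 in wild-type and 9.03, 8.80 and 8.71 in caAkt. All caAkt arrays stood above all wild-type arrays by at least 1 log2 unit. The log2 fold change was 1.27 ± 0.10 (limma adjusted p = 2.21e-05). Its other 2 probe sets gave larger rises, 1.79 ± 0.10 (adjusted p = 7.23e-06) and 1.87 ± 0.17 (adjusted p = 0.000103), so the brightest probe set gives the smallest of the 3 estimates. As for C1q, caAkt replicate 1 was the highest of the caAkt arrays at each of these probe sets. With the mean of each gene's probe sets, C3ar1 rose by 1.64 and C1qb by 1.45, so their order depends on the choice of probe set.

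The alternative pathway genes moved less. Cfb, which encodes factor B, had 6.40, 6.54 and 6.54 in wild-type and 6.77, 6.85 and 6.75 in caAkt. The wild-type values lay below every array's median and the caAkt values near it, so this is a dim signal with groups 0.21 apart at their nearest values. The log2 fold change was 0.30 ± 0.07 (limma adjusted p = 0.0132), and it was not called without caAkt replicate 2 (0.27, adjusted p = 0.0513); leaving out each array in turn gave adjusted p of 0.0206 to 0.0513.

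Cfp, which encodes properdin, had 7.94, 7.90 and 7.94 in wild-type and 8.56, 8.64 and 8.27 in caAkt. Wild-type arrays were close together and caAkt replicate 3 lay lowest of its group, still above all wild-type arrays. The log2 fold change was 0.56 ± 0.10 (limma adjusted p = 0.00231). The other Cfp probe set went the opposite way, from 7.96, 7.91 and 8.02 to 7.71, 7.78 and 7.61, a log2 fold change of -0.26 ± 0.08 (adjusted p = 0.0358 with every probe set as a row). With the mean of both probe sets as the gene's value, the log2 fold change was 0.15 and was not called (adjusted p = 0.183), so the direction for Cfp rests on the choice of probe set. On wild-type arrays the other probe set was the brighter (mean 7.96 against 7.93). The probe set used was therefore chosen through its level on caAkt arrays (mean 8.49 against 7.70). The transcript positions of these probe sets were not used here. Over all 11 probe sets of the 6 genes, 10 were called higher (13.8% of all probe sets) and this 1 was called lower (9.65% of all probe sets).

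**Figure D2:**
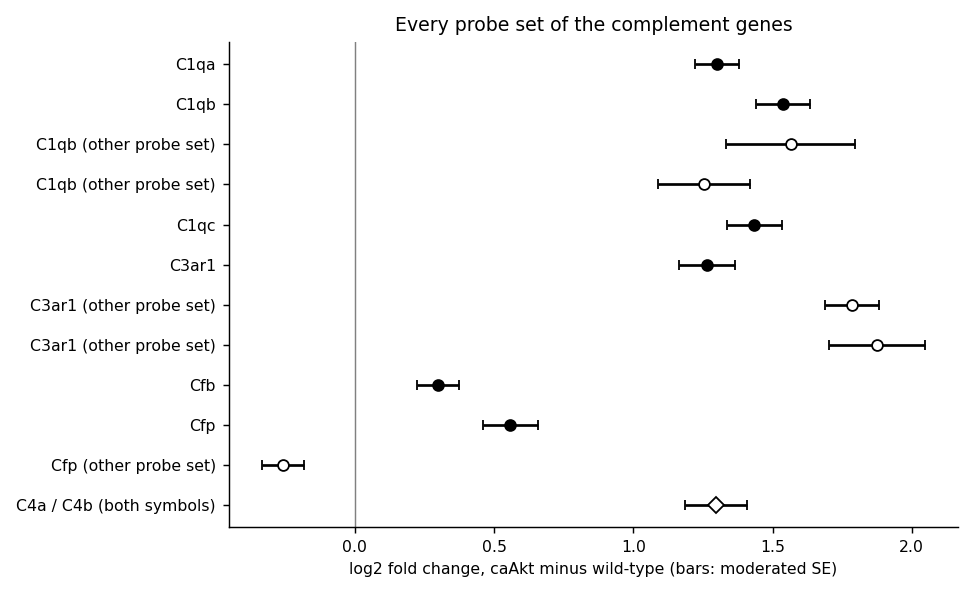
Log2 fold change of every probe set (horizontal axis, caAkt minus wild-type; bars are moderated SEs from fits of probe sets). Filled circles are the probe sets used as the gene's value, open circles the other probe sets and the diamond a probe set annotated to both C4a and C4b; only the second Cfp probe set lies below 0.

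Markers of macrophages and fibroblasts moved with these genes. The counts that follow stand beside 16.1% of all genes called higher and 12.4% called lower. Of 10 macrophage markers 9 rose and 1 fell, and the mean level of the list was 8.54 to 8.72 on wild-type arrays and 9.53 to 9.82 on caAkt arrays. Its defining members Adgre1, Csf1r and Cd68 had log2 fold changes of 1.32, 1.03 and 1.88, and the member that fell was Cd163, the hemoglobin scavenger receptor of resident macrophages (-0.49, limma adjusted p = 0.0189). Of 8 fibroblast markers 7 rose, with list means of 11.31 to 11.56 and 12.69 to 12.84; Col1a1, Col1a2 and Col3a1 had 2.31, 2.02 and 1.48. Pdgfra, a receptor that marks fibroblasts, had 0.49, and Tcf21, a transcription factor of resident fibroblasts, had 0.07 and was not called (adjusted p = 0.572). Endothelial list means were 10.06 to 10.20 in wild-type and 9.83 to 9.98 in caAkt, with 2 of 6 lower. Cardiomyocyte list means were 14.76 to 14.89 and 14.64 to 14.75, also with 2 of 6 lower. The part of any of these cell types in the complement results was not tested.

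Markers of other cell types that can make or carry complement proteins gave no call in that direction. None of 5 hepatocyte, 4 adipocyte, 4 mesothelial, 4 neutrophil, 5 lymphocyte or 4 smooth muscle markers measured was called higher. Apart from smooth muscle, the list means lay below the arrays' medians, except for neutrophil markers on wild-type replicate 2 (6.98). These lists were thus dim on average, and a missing rise says little about the cells. The hepatocyte list mean was 6.30 to 6.35 in wild-type and 6.24 to 6.27 in caAkt, with Alb lower (-0.23). Of the adipocyte markers 3 of 4 were lower, Adipoq by most (-1.73), and list means were 5.87 to 6.17 in wild-type and 5.33 to 5.49 in caAkt. Of the mesothelial markers 2 of 4 were lower, with list means of 6.22 to 6.52 and 6.03 to 6.16. Neutrophil list means overlapped between the groups (6.18 to 6.98 and 6.04 to 6.43), as did those of lymphocytes (6.42 to 6.58 and 6.38 to 6.52) and smooth muscle (9.60 to 9.68 and 9.31 to 9.74). Of the 4 smooth muscle markers 1 was called lower, Smtn (-0.35, limma adjusted p = 0.0168).

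Within arrays, C1qb minus the mean of the macrophage markers was 1.54, 1.39 and 1.53 in wild-type and 1.98, 1.88 and 2.00 in caAkt, a difference of 0.46. For C1qc the difference was 0.36, for C1qa 0.22 and for C3ar1 0.19, whereas Cfb (-0.78) and Cfp (-0.52) rose less than the list mean. The two-sided exact permutation p was 0.1 for all but C3ar1 (0.2), and 0.171 or more after adjustment over 12 comparisons. The list mean includes Cd163, the marker that fell (-0.49), which lowers the list's rise and so raises each of these differences. Differences without Cd163 were not computed. The markers' own log2 fold changes had a median of 1.06, below those of the C1q genes and C3ar1. Single markers lay on both sides, with Lyz2 (1.91) and Cd68 (1.88) above every C1q gene. Cd14 (1.49) and Adgre1 (1.32) lay among the C1q genes, and all other markers of the list lay below them. Against the median of the marker levels on each array, a summary that takes its middle value from the brightness of different probe sets, the differences turned: -0.0567 for C1qb, -0.16 for C1qc, -0.30 for C1qa and -0.33 for C3ar1, with -1.30 for Cfb and -1.04 for Cfp. Against the fibroblast mean, Cfb moved by -0.99 and Cfp by -0.73 (exact permutation p = 0.1 for both), and the other 4 genes by -0.03 to 0.25 (exact permutation p = 0.3 to 1). Against the median of the fibroblast marker levels, all 6 were negative: Cfb -1.82, Cfp -1.56, C3ar1 -0.86, C1qa -0.82, C1qc -0.69 and C1qb -0.58.

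**Figure D3:**
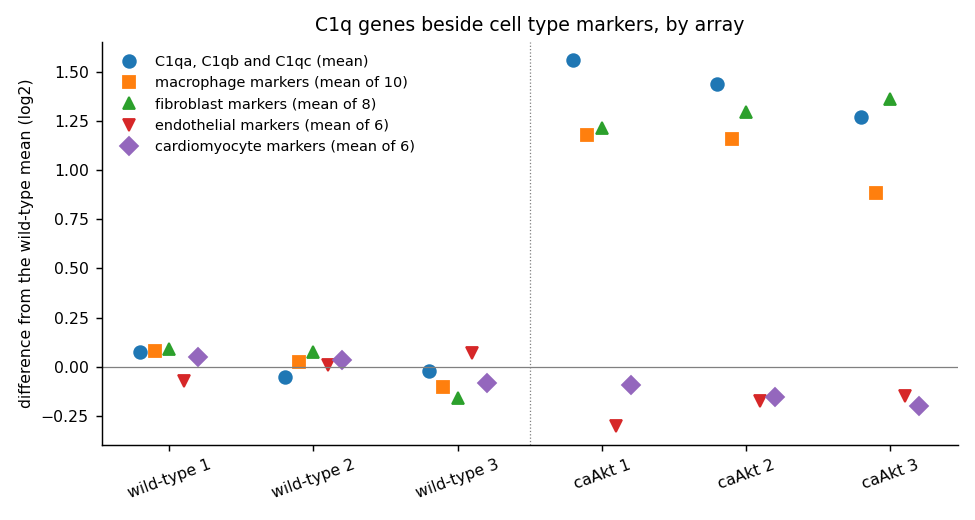
Mean log2 level of the 3 C1q genes and of 4 marker lists on each array, as the difference from the wild-type mean (vertical axis, log2). On caAkt arrays C1q lies 1.27 to 1.56 above the wild-type mean, macrophage markers 0.89 to 1.18 and fibroblast markers 1.22 to 1.36 above it, and endothelial and cardiomyocyte markers 0.09 to 0.30 below it.

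The caAkt arrays ranked alike for C1q and for macrophage markers. The C1q mean was 11.76, 11.64 and 11.47 on caAkt replicates 1, 2 and 3 and the macrophage list mean was 9.82, 9.80 and 9.53. Fibroblast markers had the opposite order, 12.69, 12.77 and 12.84. On wild-type replicates 1, 2 and 3 the orders of C1q and macrophage markers differed. The C1q mean was 10.28, 10.15 and 10.18 there, and the macrophage list mean was 8.72, 8.67 and 8.54. Fibroblast markers, with 11.56, 11.55 and 11.31, ranked like macrophage markers on these wild-type arrays. With 3 arrays per group these orders are a description and carry no test.

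The genes with the most similar profile were found by the root mean square difference over the 6 arrays, after each gene was centred on its own mean. This measure is dominated by the genotype difference and is given as a description. Tlr2, a receptor for bacterial lipoproteins, was closest to both C1qa (0.0502) and C3ar1 (0.0440). Gpr65, a proton-sensing receptor of immune cells (0.0507), and Etv5, an ETS-family transcription factor (0.0526), followed for C1qa, and the peptide transporter Slc15a3 (0.0605) and Npl, a sialic acid lyase (0.0661), for C3ar1. C1qb was nearest to Basp1 (0.0726), the Fc receptor Fcgr3 (0.0815) and Gatm, an enzyme of creatine synthesis (0.0821), and C1qc to Ncf4, a subunit of the phagocyte oxidase (0.0720), Osbpl6 (0.0890) and the integrin chain Itgb2 (0.0930). Neighbours of Cfb were Serf1 (0.0141), Cilk1 (0.0184) and Flot2 (0.0189), and those of Cfp were Abcc3 (0.0363), Parm1 (0.0374) and Arhgap19 (0.0493). Among the members themselves, C1qa and C3ar1 (0.0729) and C1qb and C1qc (0.0759) were the closest pairs, and C1qb and Cfb (0.635) the farthest.

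Of 45 other complement genes listed, 37 were measured. In the limma fit 11 were called higher (16.1% of all genes were) and 3 lower (12.4%), with a median log2 fold change of -0.04, beside -0.04 over all genes.

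Among 12 measured genes that start the classical and lectin pathways, 4 rose and 1 fell, where 16.1% and 12.4% of all genes did. The partner proteases of C1q rose with it. C1ra went from 9.12, 9.10 and 9.0 to 10.19, 10.62 and 10.32, a log2 fold change of 1.30 ± 0.11 (limma adjusted p = 3.08e-05), and C1s1 from 8.95, 8.75 and 8.77 to 9.94, 9.97 and 9.95, a log2 fold change of 1.13 ± 0.08 (adjusted p = 1.00e-05). Both have near-identical copies in the mouse, C1rb and C1s2, which were not analysed here and may share signal with these probe sets. Colec12, a collectin with a scavenger receptor form, rose by 1.31 ± 0.15 (adjusted p = 0.000196). Its wild-type values of 6.16, 6.11 and 5.56 lay below the arrays' medians, and the filter on dim probe sets removed it.

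Masp1, a protease of the lectin pathway, rose by 1.51 ± 0.11 at its brightest probe set (limma adjusted p = 1.51e-05). Of its 4 other probe sets only 1 was called, with 0.33 (adjusted p = 0.0260), and the remaining 3 gave 0.05 to 0.18. With the mean of its 5 probe sets, the log2 fold change was 0.43 (adjusted p = 0.00142). Fcna, ficolin A, a lectin pathway recognition protein made by macrophages, fell from 7.91, 7.93 and 7.91 to 6.97, 6.62 and 7.03. Its log2 fold change was -1.05 ± 0.10 (adjusted p = 9.62e-05), opposite to C1q, and all 3 caAkt values lay below all wild-type values. Mbl1, Mbl2, Masp2, Fcnb, Colec10 and Colec11 were not called. C2, the protease that joins C4b in the classical C3 convertase, was not called at its brightest probe set (0.16, adjusted p = 0.256), while its other probe sets gave 0.35 (adjusted p = 0.0364 with every probe set as a row) and 0.17 (adjusted p = 0.178).

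None of the 6 measured genes of the terminal pathway, which builds the membrane attack pore, was called in the limma fit, where 28.5% of all genes were. These were Hc (the gene of C5), C6, C8a, C8b, C8g and C9, with log2 fold changes of -0.19 to 0.15. Their adjusted p was 0.0715 (C9) or more, and the unadjusted p was under 0.05 for 1 of them, C9. All but C9 had wild-type means below the arrays' medians, from 4.43 (C8a) to 6.49 (Hc), so these 5 signals were dim.

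Among 13 measured regulators, 3 rose and 2 fell, near the 16.1% and 12.4% of all genes. The inhibitor of C1r and C1s, Serping1, rose from 11.86, 11.89 and 11.56 to 12.84, 13.20 and 13.14, a log2 fold change of 1.29 ± 0.12 (limma adjusted p = 5.62e-05). Clu, clusterin, which blocks pore assembly, rose by 1.05 ± 0.16 (adjusted p = 0.000983), and its 4 probe sets gave 1.01 to 1.19. Cfi, the protease that inactivates C3b and C4b, rose by 0.67 ± 0.08 (adjusted p = 0.000357). Lower were a pair of inhibitors of the terminal complex, Vtn, which encodes vitronectin (log2 fold change -0.75 ± 0.09, adjusted p = 0.000299), and Cd59a, on the membrane of host cells (-0.47 ± 0.08, adjusted p = 0.00145). C4bp, Cd55, Cd55b, Cd46, Cr1l, Cfhr2, Susd4 and Csmd1 were not called.

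Among 6 measured receptors 4 rose and 0 fell, beside the 16.1% of all genes called higher. The C5a receptor C5ar1 went from 7.83, 7.76 and 7.83 to 8.97, 8.76 and 8.61, a log2 fold change of 0.97 ± 0.09 (limma adjusted p = 7.84e-05). Its other probe set gave 1.37 (adjusted p = 0.000789 with every probe set as a row). The integrin chains of complement receptors 3 and 4, which bind the C3 fragment iC3b, rose too, Itgam by 0.86 ± 0.13 (adjusted p = 0.000946), Itgax by 1.29 ± 0.09 (adjusted p = 1.66e-05) and their shared partner Itgb2 by 1.50 ± 0.12 (adjusted p = 2.33e-05). Itgam and Itgax stood at 5.50 to 5.66 and 6.53 to 6.61 on wild-type arrays, below the arrays' medians. On caAkt arrays Itgam, at 6.14 to 6.66, still lay below the medians. The filter on dim probe sets removed both genes. Cr2, of B cells, and Vsig4, of resident macrophages, were not called.

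**Figure D4:**
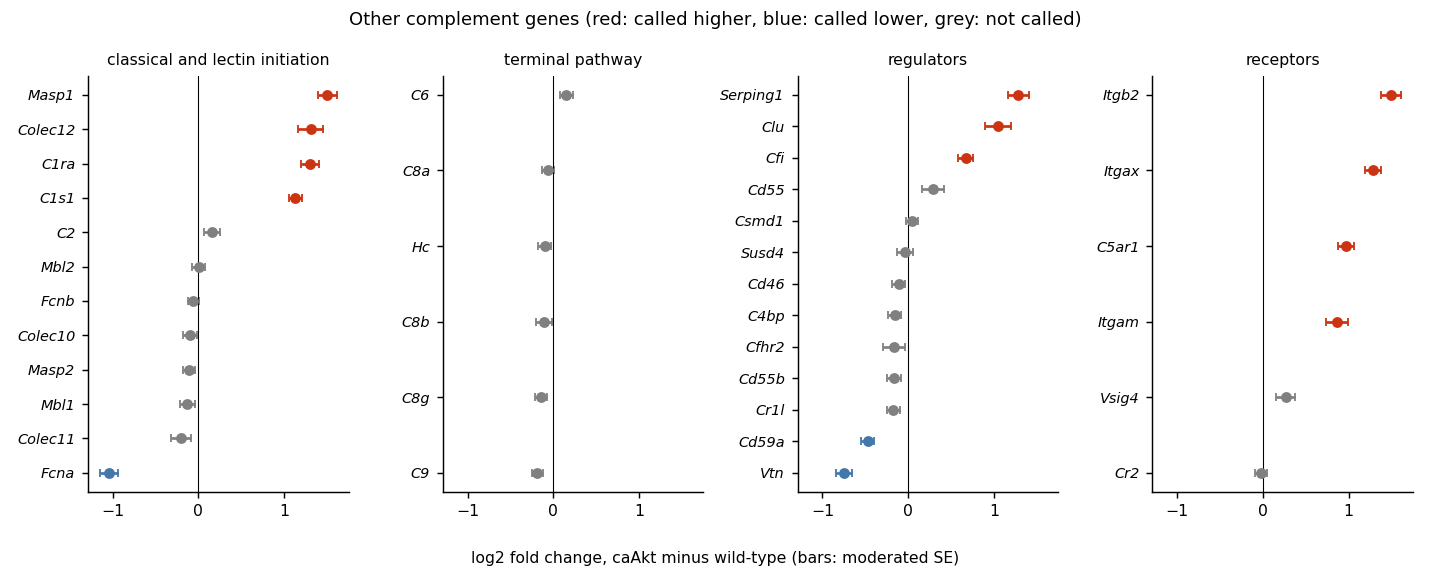
Log2 fold change (horizontal axis, caAkt minus wild-type; bars are moderated SEs) of 37 other complement genes in 4 groups by role, 1 row per gene. Red points are called higher, blue lower and grey not called; the terminal pathway genes lie between -0.19 and 0.15, and 4 of 6 receptors lie above 0.8.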

How the data were processed

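Total RNA was labelled with biotin by a one-cycle reaction and hybridised to 6 arrays, per the labels' protocols. The deposited values are log2 signals per probe set that the authors made with RMA in the R package affy, per the submitters' processing notes. No version of either is given in the sources used here. RMA equalises the arrays' distributions, so a change shared by most genes is not seen, and the number of arrays limits the precision. Of 45101 probe sets (64 controls), 34945 had 1 symbol in the platform annotation, 932 several and 9160 none; 34741 were found in the RefSeq table of GRCm38.p6, which changed 0 symbols.

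Groups were compared over 18193 genes with limma 3.58.1 in R 4.3.3 (lmFit, eBayes, 4 residual degrees of freedom, Benjamini-Hochberg, called at adjusted p under 0.05). No low-signal filter was used. The fit was tested on simulated data with independent normal noise, in which 67, 67 and 66 genes were changed by 0.5, 1 and 2 log2 units. It recovered 58.2%, 97.0% and 98.5% of these changes, with 7 false calls. Far fewer genes changed there than were called in the data, so these shares may not carry over.

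The members and lists were chosen with earlier results of these data known, so no test of a list is given. All members were named, with called genes of the wider pathway and the 3 nearest profiles per member. Alternatives were the variance prior, probe set choice and mean, a dim filter, median centring, renewed quantile normalization, the replicate block, array weights, a threshold of 0.01, the median of a marker list and leaving out each array; a pseudocount does not apply to log2 values.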

Additional observations from a re-analysis of the deposited data

Results flagged for a closer look

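A probe set annotated to both C4a and C4b lies outside the gene values used above, because its signal cannot be assigned to either gene, and it was higher on caAkt arrays than in the wild-type controls. C4 is the component that follows C1 in the classical pathway. The probe set stood at 8.49, 8.55 and 8.29 in wild-type and 9.54, 9.90 and 9.79 in caAkt, with no overlap. The log2 fold change was 1.30 ± 0.11 (limma adjusted p = 7.07e-05, fitted with all probe sets that carry a symbol).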

How the results depend on the processing

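C1qa, C1qb, C1qc and C3ar1 kept their direction and their call in all 15 alternatives, with log2 fold changes of 1.24 to 1.36, 1.45 to 1.61, 1.35 to 1.54 and 1.18 to 1.64. Over the same alternatives 5 or 6 members were called higher. Cfb was not called without caAkt replicate 2 or at a threshold of 0.01, and was not tested under the filter on dim probe sets, which removed it; Cfp was not called with the mean of its probe sets. Other complement genes called higher numbered 7 with the dim filter, which tests fewer genes, and 10 to 13 otherwise. This filter removed Cfi, Colec12, Itgam and Itgax, and also Fcna, which was called lower in the main fit. At a threshold of 0.01, 3255 genes were called in place of 5183. Against the median of the marker levels, the differences turned negative: against macrophage markers for C1qa (-0.30), C1qb (-0.0567), C1qc (-0.16) and C3ar1 (-0.33), and against fibroblast markers for C1qa (-0.82), C1qb (-0.58) and C1qc (-0.69). Cfb and Cfp kept their direction there and moved to -1.30 and -1.04 (macrophage) and -1.82 and -1.56 (fibroblast), and C3ar1 to -0.86 (fibroblast). The cause was not tested. With the replicate number as a block, 5141 genes and all 6 members were called, so the replicate block changed no call of a member. Deviations from the group mean correlated at 0.27, 0.03 and -0.12 between same-numbered arrays, and at -0.27 to 0.23 between the others. These values cannot decide whether same-numbered arrays share a batch or a pairing. Signal over background cannot be judged from RMA values, which carry no detection call.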
